A study of Homo sapiens with 6 samples.

Results

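The caspases and their direct regulators were followed in a lymphoma cell line treated with IL-17A. The members were CASP2, CASP6, CASP8, CASP9 and CASP10, the caspase-8 inhibitor CFLAR, the caspase inhibitor XIAP and the caspase-9 activator APAF1. They were fixed by name and by no threshold on a measured value, but with earlier results of these data known. Array probes were assigned to them through the RefSeq transcript each probe is annotated to, which gave 15 probes of the 8 genes, among 34127 probes on the array, 25771 of which could be named for 19740 genes. SU-DHL-2 is an established human diffuse large B-cell lymphoma (DLBCL) line, and 3 samples treated with IL-17A (200 pg/ml, 72 h) were compared with 3 control samples that received no IL-17A, each on its own 1-colour array. IL-17A is a cytokine of Th17 cells, and the study asked which genes respond to it in lymphoma cells. The samples come from a single line, and the labels do not say whether they were separate cultures, so the p-values measure only the spread between these samples.

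Caspases are proteases that cut their targets after aspartate and exist in healthy cells as inactive precursors. Initiator caspases are switched on when adaptor platforms bring them together: caspase-8 and caspase-10 at ligand-bound death receptors, caspase-9 at the apoptosome that APAF1 forms with cytochrome c, and caspase-2 at the PIDDosome. Executioner caspases, among them caspase-6, are then cut and dismantle the cell. c-FLIP, the product of CFLAR, resembles caspase-8 and competes with it at the receptor, while XIAP binds caspases that are already active. Much of this control acts on proteins, which the arrays did not measure. Because the whole culture was measured, a change in the amount of RNA per cell and a change in the mixture of cells cannot be told apart.

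Each array value is a log2 signal (the log2 of the background-subtracted brightness of a probe), made comparable between arrays by quantile normalization, so that a difference of 1 is a 2-fold difference. Signals of different probes also depend on the probe, and levels were therefore not compared between genes. The IL-17A arrays each detected 23570 to 23718 probes and the control arrays 23729 to 24077. The test covered 23945 probes, those with a detected signal on 3 or more arrays. No spot was saturated. All 3 controls were on the same slide as IL-17A replicate 1, whereas replicates 2 and 3 of the IL-17A group were on a second slide, and the effect of slide is therefore separated from that of IL-17A only in part. Differences within the first slide rest on IL-17A replicate 1 alone against the 3 controls, as do log2 differences fitted with slide as a block. They are given for CFLAR, XIAP, CASP2 and CASP9, and for 1 CASP10 probe in the last section. The B-cell identity of the line was visible in CD79A (log2 signal 13.50 to 13.74), CD79B (12.72 to 12.87) and MS4A1 (9.03 to 9.27), while PAX5 was dim (3.48 to 3.95). The summed signal of the 9 B-cell markers was 70453 to 71746 in the IL-17A samples and 64294 to 68587 in the controls, and the part of this difference in the results was not tested. T-cell markers were tested for 5 of 6 genes, with summed signals of 187 to 206 against 196 to 209, and CD3E lay near the background (2.71 to 3.32) and had a log2 difference of -0.46 (limma, adjusted p = 0.0401), which was not called when any array was left out (adjusted p = 0.0692 to 0.147) and was -0.048 with normexp background correction (adjusted p = 0.416). Of the 5 tested T-cell markers, 2 were higher and 3 lower. The brightest of them was CD3G, at log2 signals of 6.59 to 6.79, with a difference of 0.12 (adjusted p = 0.170, limma). CD2 differed by 0.51 (adjusted p = 0.0540, limma) and CD8A by -0.51 at its brightest probe (adjusted p = 0.0680). The other tested CD8A probe differed by -0.056 (adjusted p = 0.580). Of 7 monocyte markers only CD14 was tested, with sums over the list of 31.9 to 34.8 against 31.6 to 37.3.

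Of the members, 2 probes of CFLAR rose with IL-17A, and no caspase probe passed the adjusted test. All differences were small. Of the 14 tested probes, all detected on all 6 arrays, 7 were higher and 7 lower in the IL-17A samples, with a median log2 difference of -0.03 and a median absolute difference of 0.13, against 0.01 and 0.12 over all tested probes. An adjusted p under 0.05 (limma, Benjamini-Hochberg over all tested probes) was reached by 2 probes (14.3%), both higher, against 7.59% of all tested probes, with 4.43% higher and 3.17% lower. An unadjusted p under 0.05 was reached by 4 probes (28.6%), 2 higher and 2 lower, against 31.3% of all tested probes, with 17.1% higher and 14.2% lower. The 3 IL-17A values did not overlap the 3 control values at 5 probes (35.7%), with IL-17A above at 3 and below at 2, against 38.9% of all tested probes, with 21% above and 18% below. No member probe changed by 1.5-fold or more with an unadjusted p under 0.05, which 2.18% of all tested probes did. The 2 called probes belong to the same gene.

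**Figure D1:**
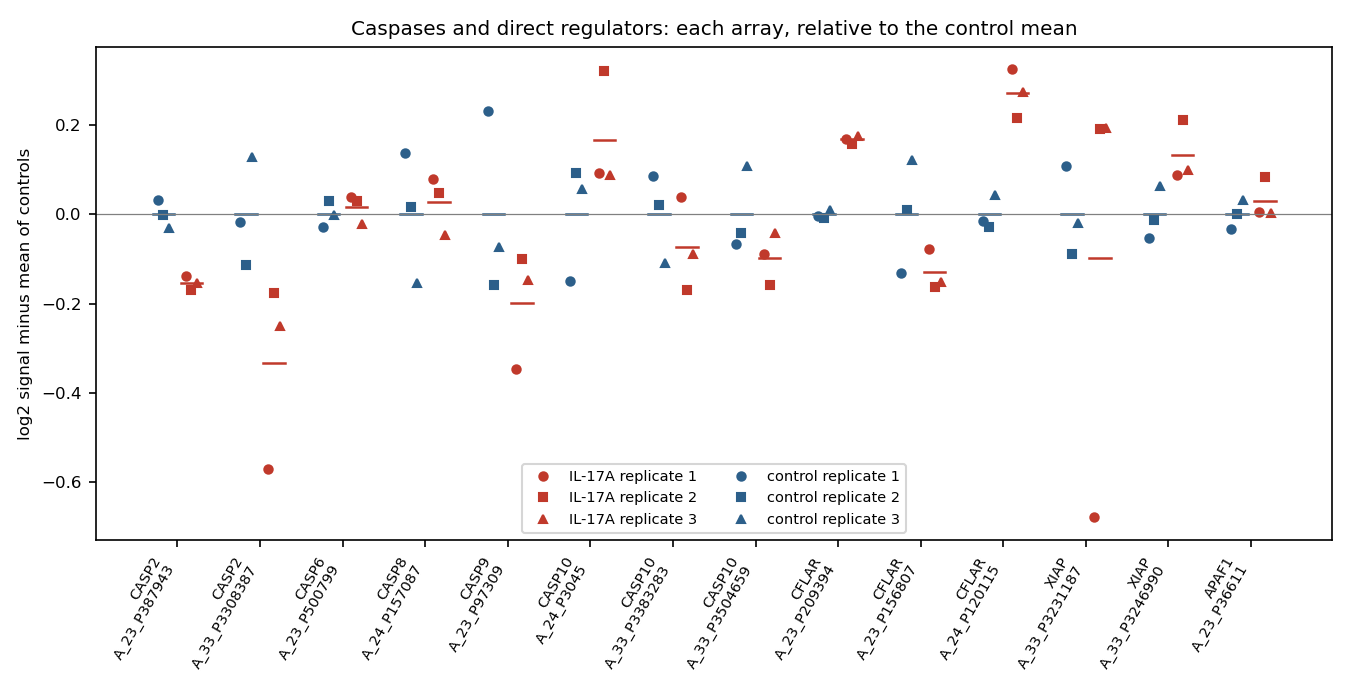
Log2 signal of each array minus the control mean of that probe (vertical axis) for the 14 tested probes (horizontal axis), with IL-17A samples in red, controls in blue, symbols for the replicate and short lines for the group means. At CFLAR A_24_P120115 and A_23_P209394 all IL-17A values lie above all control values, at both CASP2 probes all lie below, and at CASP2 A_33_P3308387 and XIAP A_33_P3231187 IL-17A replicate 1 lies far below the other IL-17A arrays.

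CFLAR, which holds caspase-8 in check at death receptors, was measured by 3 probes annotated to different transcripts. At probe A_24_P120115 (transcript NM_003879), the log2 signals were 6.44, 6.33 and 6.39 in the IL-17A samples and 6.10, 6.09 and 6.16 in the controls. All IL-17A values were above all control values. The mean rose from 6.11 ± 0.038 to 6.39 ± 0.055 (SD, n = 3 each), a log2 difference of 0.27 (SE 0.05, 95% confidence interval 0.16 to 0.39), or 20.7%, with an adjusted p of 0.0361 by limma. At probe A_23_P209394 (NM_001127184), the log2 signals were 7.80, 7.78 and 7.80 with IL-17A and 7.62, 7.62 and 7.64 without it. The replicates of each group differed by no more than 0.02 here. The log2 difference was 0.17 (SE 0.03, interval 0.09 to 0.25), or 12.4%, with an adjusted p of 0.0447 by limma.

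The third CFLAR probe did not follow them. At A_23_P156807 (NM_001202519), the log2 signals were 9.37, 9.28 and 9.29 with IL-17A and 9.31, 9.45 and 9.57 without it, and the groups overlapped. The log2 difference was -0.13 (SE 0.07, interval -0.31 to 0.05, adjusted p = 0.276, limma). It was -0.19 without control replicate 1 (adjusted p = 0.154), -0.069 without control replicate 3 and -0.076 within the shared slide. The difference in response between this probe and A_24_P120115 was 0.40 on the log2 scale, that between it and A_23_P209394 was 0.30, and that between the 2 called probes was 0.10. Each had p = 0.1 (exact permutation test, two-sided), the smallest p that 3 arrays against 3 allow, and an adjusted p of 0.267 over the 8 probe pairs of member genes. The per-array differences between the probes did not overlap between the groups in any of the 3 pairs, so the test did not single out the third probe. Averaged over the 3 probes, CFLAR differed by 0.10 (adjusted p = 0.151, limma), so the gene as a whole was not called. No file holds the probe sequences, and which splice forms each probe reads was not analysed here.

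The 2 calls needed all 6 arrays. With each array left out in turn, neither CFLAR probe reached an adjusted p under 0.05 (0.0519 to 0.147 for A_24_P120115 and 0.0661 to 0.169 for A_23_P209394, limma), while their log2 differences stayed at 0.24 to 0.30 and at 0.17 and their unadjusted p between 0.0018 and 0.0153. The calls over all probes moved in the same way, from 1818 to between 2 and 890. Within the shared slide, IL-17A replicate 1 exceeded the control mean by 0.32 and 0.17 at the 2 probes, and with slide as a block the adjusted p was 0.102 and 0.147. With normexp background correction the log2 difference of A_24_P120115 was 0.12 (adjusted p = 0.0578) and that of A_23_P209394 was 0.13 (adjusted p = 0.0543).

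**Figure D2:**
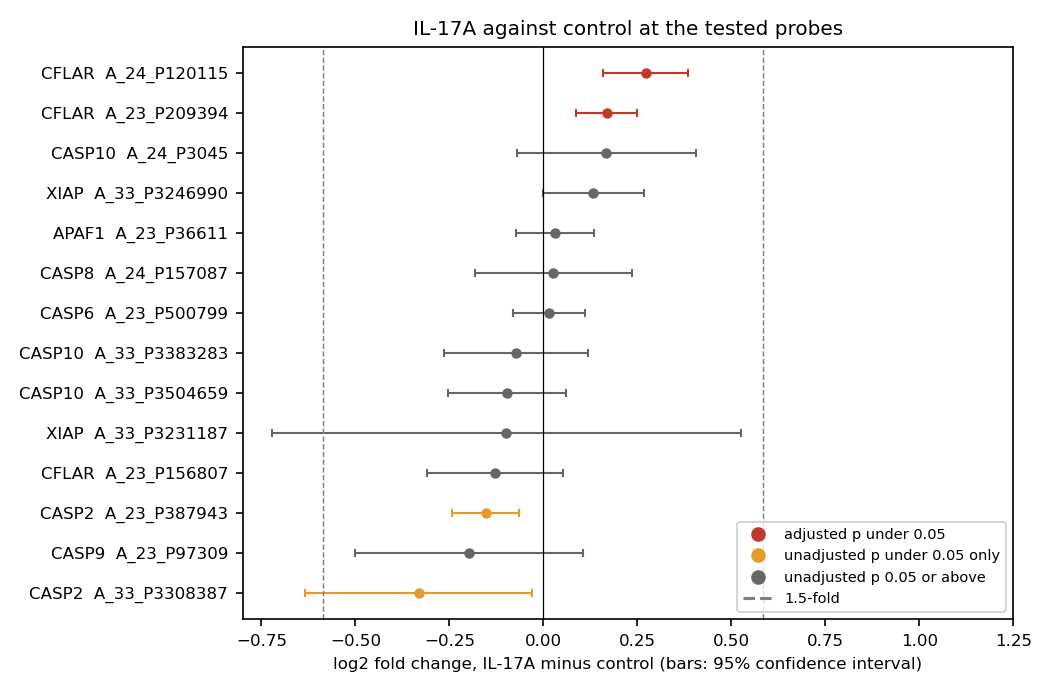
Log2 fold change of IL-17A against control (horizontal axis) with its 95% confidence interval for the 14 tested probes (vertical axis, ordered by size), coloured by test result, with dashed lines at 1.5-fold. The 2 red points are CFLAR probes at 0.27 and 0.17, the 2 orange points are CASP2 probes at -0.15 and -0.33, and no point lies beyond the dashed lines.

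CFLAR is a known target of the NF-kappaB transcription factors, which are active in part of DLBCL, and the bases before its first listed start are shown for that reason. Promoter sequences were taken from RefSeq (GRCh38.p14), which lists 4 starts for CFLAR. The window covers the 250 bases before the start at chr2:201118466-201118715 on the plus strand, and capitals mark a GGGCGG box joined to a kappaB consensus match (GGGGAATTCC), which begins 97 bases before the start and overlaps the box by 2 bases.
CFLAR: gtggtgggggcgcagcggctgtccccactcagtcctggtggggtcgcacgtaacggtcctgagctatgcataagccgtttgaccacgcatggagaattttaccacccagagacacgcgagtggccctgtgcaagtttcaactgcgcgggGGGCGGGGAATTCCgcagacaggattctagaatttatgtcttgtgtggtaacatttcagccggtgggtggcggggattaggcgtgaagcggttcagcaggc
A kappaB consensus match on either strand was found at 1 of the 4 CFLAR starts, the only match at a listed member start. The other members had 2 (CASP2), 1 (CASP6), 3 (CASP8), 2 (CASP9), 3 (XIAP) and 1 (APAF1) starts listed. Over all 35116 promoters of the same length, the share with a match was 5.21%. A single match cannot set the member starts apart from this share, and a role of NF-kappaB was not tested. The GGGCGG box was found at 2 of the 4 CFLAR starts, against 42.6% of all promoters. These are matches of letters, and binding was not measured. No promoter of CASP10 was listed. CFLAR, CASP10 and CASP8 lie in this order on chromosome 2, with CASP10 the only protein-coding gene between CFLAR and CASP8.

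XIAP, the inhibitor that binds active caspases directly, was higher at its bright probe in every IL-17A sample, but not beyond the adjusted threshold. At A_33_P3246990 (NM_001167), the log2 signals were 10.38, 10.50 and 10.39 with IL-17A and 10.24, 10.28 and 10.35 without it. The groups did not overlap, with IL-17A above, as at 21% of all tested probes. The log2 difference was 0.13 (SE 0.05, interval -0.00 to 0.27, adjusted p = 0.164, limma). The other XIAP probe, A_33_P3231187, was dim, at 2.77, 3.64 and 3.64 with IL-17A and 3.56, 3.36 and 3.43 without it. Here IL-17A replicate 1 was the lowest of the 6 arrays and the other IL-17A samples were the highest. The log2 difference was -0.10 (SE 0.25, interval -0.72 to 0.52, adjusted p = 0.817, limma), and without IL-17A replicate 1 it was 0.19 (adjusted p = 0.165). Within the shared slide, IL-17A replicate 1 differed from the control mean by 0.087 at the bright probe and by -0.68 at the dim one.

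The death-receptor initiators, caspase-8 and caspase-10, were not called at any probe. CASP8 at A_24_P157087 (NM_033355) gave log2 signals of 8.77, 8.74 and 8.64 with IL-17A and 8.82, 8.70 and 8.53 without it. The IL-17A values lay inside the range of the controls, and the log2 difference was 0.03 (SE 0.08, interval -0.18 to 0.23, adjusted p = 0.853, limma). For CASP10, the probe A_33_P3383283 (NM_032977) gave 9.87, 9.66 and 9.75 with IL-17A and 9.92, 9.86 and 9.73 without it. The groups overlapped, with a log2 difference of -0.07 (interval -0.26 to 0.12, adjusted p = 0.557, limma). CASP10 at A_33_P3504659 (NM_032977) gave 6.82, 6.75 and 6.86 against 6.84, 6.86 and 7.01, a log2 difference of -0.10 (adjusted p = 0.339, limma). The dim CASP10 probe A_24_P3045 (NM_032974) gave 3.64, 3.87 and 3.64 against 3.40, 3.64 and 3.61, a log2 difference of 0.17 (interval -0.07 to 0.41, adjusted p = 0.285, limma). A further CASP10 probe for the same transcript, A_33_P3255075, was detected on no array and was not tested. The 3 tested CASP10 probes thus disagreed in sign, and the smallest p for a difference in response between any pair of them was 0.2 (exact permutation test, two-sided).

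The apoptosome members were likewise not called. APAF1, which assembles with cytochrome c into the platform for caspase-9, gave log2 signals of 7.38, 7.46 and 7.37 with IL-17A and 7.34, 7.37 and 7.40 without it at A_23_P36611 (NM_181861). The groups overlapped, and the log2 difference was 0.03 (SE 0.04, interval -0.07 to 0.14, adjusted p = 0.648, limma). CASP9 at A_23_P97309 (NM_001229) gave 11.07, 11.31 and 11.27 with IL-17A and 11.65, 11.26 and 11.34 without it. The highest value was that of control replicate 1 and the lowest that of IL-17A replicate 1, and the other 4 arrays lay between 11.26 and 11.34. The log2 difference was -0.20 (SE 0.12, interval -0.50 to 0.11, adjusted p = 0.317, limma). It was -0.082 without control replicate 1, -0.12 without IL-17A replicate 1 and -0.35 within the shared slide.

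CASP2, the initiator of the PIDDosome, was lower in all IL-17A samples at both of its probes, which are annotated to the same transcript (NM_032982), and missed the adjusted threshold at each. At A_23_P387943, the log2 signals were 10.12, 10.09 and 10.11 with IL-17A and 10.29, 10.26 and 10.23 without it. The groups did not overlap. The mean was 10.11 ± 0.015 against 10.26 ± 0.031 (SD, n = 3 each), a log2 difference of -0.15 (SE 0.04, interval -0.24 to -0.06), or -10.1%, with an adjusted p of 0.0599 by limma. At A_33_P3308387, the log2 signals were 6.91, 7.31 and 7.23 with IL-17A and 7.47, 7.37 and 7.61 without it. IL-17A replicate 1 was the lowest, and the groups again did not overlap. The log2 difference was -0.33 (SE 0.12, interval -0.63 to -0.03, adjusted p = 0.134, limma), and -0.21 without IL-17A replicate 1. Averaged over both probes, CASP2 differed by -0.24 (adjusted p = 0.0577, limma). The responses of the probes differed by 0.18 (p = 0.5, exact permutation test, two-sided). Within the shared slide, IL-17A replicate 1 differed from the control mean by -0.14 and -0.57. The adjusted p of A_23_P387943 was under 0.05 with no detection filter, with a variance trend, with the methods' test and with normexp background correction (0.0247 in the last). It was 0.486 without normalization, 0.214 with slide as a block and 0.151 with a replicate block.

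The 250 bases before the first of 2 listed CASP2 starts (GRCh38.p14, chr7:143288101-143288350, plus strand) are shown because CASP2 was the member caspase with non-overlapping groups at both of its probes. Capitals mark 4 matches to GGGCGG, all on the minus strand and therefore printed as CCGCCC, with an overlap of 2 bases between the first and the second, and 2 matches to CCAAT, of which the one nearer the start is on the minus strand and printed as ATTGG.
CASP2: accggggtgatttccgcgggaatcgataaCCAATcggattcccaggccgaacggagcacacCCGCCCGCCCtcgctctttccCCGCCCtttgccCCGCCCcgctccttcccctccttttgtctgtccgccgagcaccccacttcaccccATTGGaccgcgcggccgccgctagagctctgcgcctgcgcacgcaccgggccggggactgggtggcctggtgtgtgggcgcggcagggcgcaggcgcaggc
CCAAT occurred in 32% of all promoter windows and GGGCGG in 42.6%. No kappaB consensus or TATAAA match was found in this window.

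CASP6, the executioner among the members, was not called. At A_23_P500799 (NM_001226), the log2 signals were 7.18, 7.17 and 7.12 with IL-17A and 7.11, 7.17 and 7.14 without it. The groups overlapped, and the log2 difference was 0.02 (SE 0.04, interval -0.08 to 0.11, adjusted p = 0.807, limma).

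**Figure D3:**
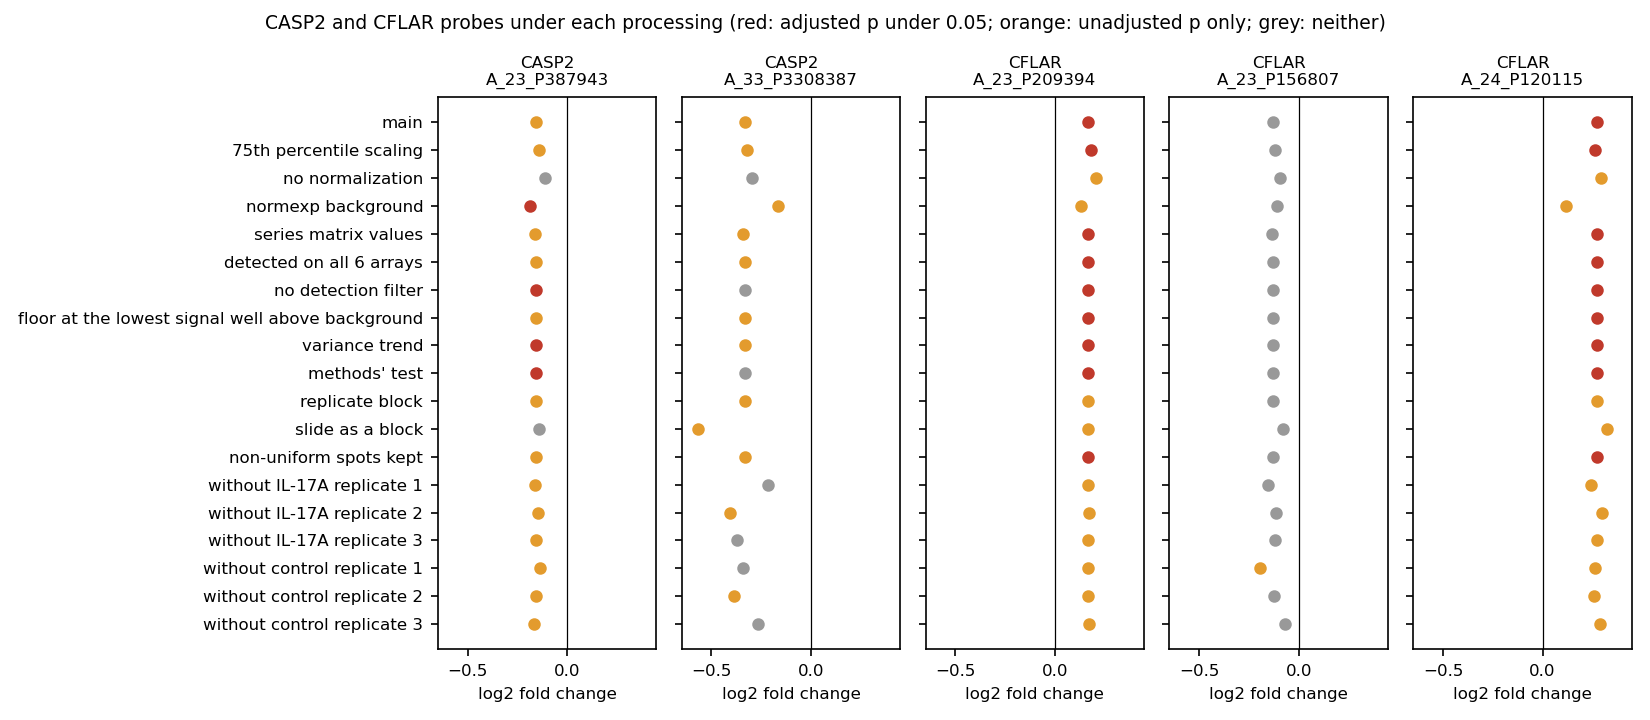
Log2 fold change (horizontal axis) of the 2 CASP2 and 3 CFLAR probes under the processing of the text (main) and 18 other settings (vertical axis), with red for an adjusted p under 0.05, orange for an unadjusted p under 0.05 only and grey for neither, leaving undrawn the mean over the probes of a gene, where CFLAR is at 0.10 and CASP2 at -0.24. The points of each probe keep their side of 0 in the settings drawn, and neither rising CFLAR probe is red in any setting that leaves out an array.

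Few of the genes around the members were called. Of 42 further genes of the pathway, each taken at its brightest tested probe, 39 were tested, and 2 (5.13%) had an adjusted p under 0.05 by limma, both lower, against 7.59% of all tested probes. An unadjusted p under 0.05 was reached by 9 genes (23.1%), 5 higher and 4 lower, against 31.3%. The median log2 difference was 0.03. Both called genes code for mitochondrial proteins and came from a list of 5 genes of the PIDDosome, the apoptosome and mitochondria. ENDOG, a mitochondrial nuclease, fell from log2 signals of 9.57, 9.55 and 9.46 to 9.22, 9.21 and 9.20, a log2 difference of -0.32 (SE 0.04, adjusted p = 0.0326, limma). CYCS, the cytochrome c that binds APAF1, fell from 11.84, 11.87 and 11.79 to 11.59, 11.55 and 11.55 at its brightest probe (-0.27, adjusted p = 0.0327, limma). Its other tested probes differed by -0.30 and -0.32 (adjusted p = 0.0327 and 0.0286). CYCS has processed pseudogenes whose transcripts these probes may also read, so its value is uncertain. In both genes all IL-17A values lay below all control values. With an array left out, the adjusted p of ENDOG was 0.0478 to 0.135 and that of the brightest CYCS probe 0.0479 to 0.136, and each was called in 1 of 6 such fits, the one without control replicate 3. With slide as a block the adjusted p was 0.116 for ENDOG and 0.123 for this CYCS probe, with a replicate block 0.124 for each, and without normalization 0.158 and 0.157. Of the other genes of this list, PIDD1 differed by 0.08 and CRADD, the adaptor of caspase-2, by 0.05, and neither was called.

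No gene of the other lists was called. Among the other caspases, 5 of 6 were tested. CASP1, the inflammatory caspase, had the largest difference at 0.43, from dim log2 signals of 2.34, 2.54 and 2.60 to 2.95, 2.78 and 3.04, with an adjusted p of 0.0556 by limma. CASP5 differed by -0.24 (adjusted p = 0.117). Of the 9 tested death receptors, ligands and adaptors, RIPK1, the kinase of the receptor complex, differed by -0.15 (adjusted p = 0.252). The death receptor FAS differed by 0.12 at its brightest probe (adjusted p = 0.0872) and by -0.13 and 0.14 at its other tested probes (adjusted p = 0.475 and 0.228).

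The IAP family, to which XIAP belongs, and its antagonists had 9 tested genes, of which 8 were higher and 1 lower, with a median log2 difference of 0.11 against 0.01 over all tested probes, and none passed the adjusted test. The largest differences were at the dim probes of BIRC7 (0.18, adjusted p = 0.527) and XAF1 (0.18, adjusted p = 0.859). The groups did not overlap at 4 of the 9 genes, a share near the 38.9% of all tested probes, with 21% above and 18% below. These were BIRC3 (cIAP2), NAIP, BIRC2 (cIAP1) and the IAP antagonist DIABLO, named after their values were seen, with differences of 0.13, 0.12, 0.07 and -0.09 (adjusted p = 0.109, 0.136, 0.375 and 0.169). Of the 11 caspase substrates, 4 were higher and 7 lower. LMNA, the nuclear lamina protein cut by caspase-6, differed by 0.25 at its brightest probe (adjusted p = 0.0889) and by 0.027 and 0.019 at its other tested probes (adjusted p = 0.704 and 0.878), and the channel PANX1 by 0.16 (adjusted p = 0.231).

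**Figure D4:**
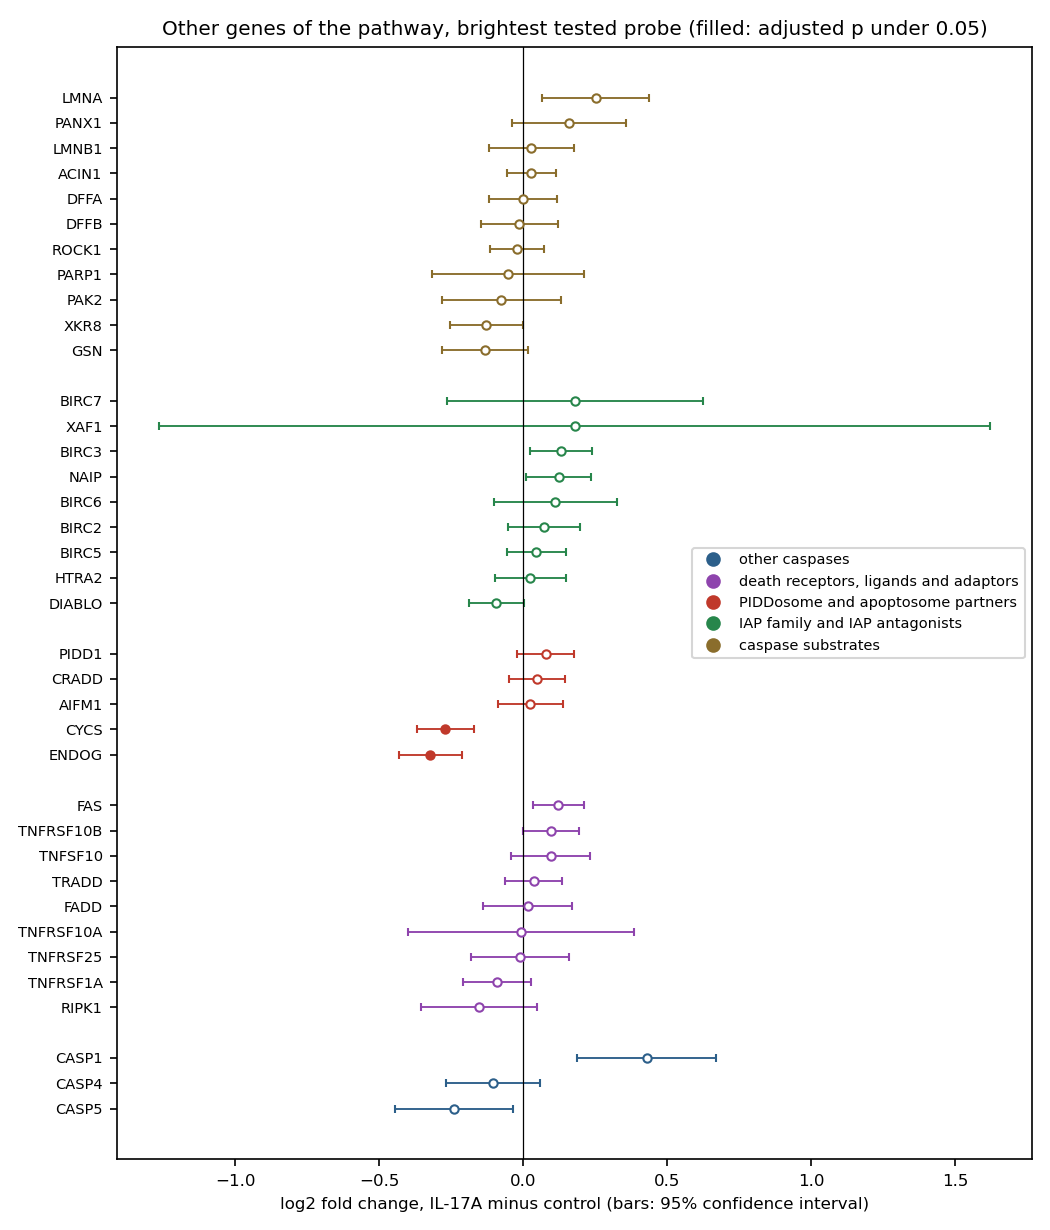
Log2 fold change of IL-17A against control (horizontal axis) with its 95% confidence interval for tested pathway genes at their brightest probe, grouped and coloured by list, filled where the adjusted p is under 0.05. ENDOG and CYCS are the 2 filled points, at -0.32 and -0.27, and XAF1 has the widest interval.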

How the data were processed

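RNA of the 6 samples was labeled with Cy3 and hybridized to Whole Human Genome arrays by the authors. The deposited intensity of each spot comes from Agilent Feature Extraction (version 11.0.1.1) and is corrected for background but not normalized. The authors also deposited log2 values after quantile normalization in GeneSpring, used here as an alternative. Groups were taken from the sample titles. Control spots and the 4 to 25 non-uniform spots per array were left out, intensities below 1 were raised to 1, log2 values of the 43118 spots were averaged for 34127 probes, and arrays were quantile normalized. Detected was taken to mean positive, significant and well above background, since the methods do not define it, and 23945 probes detected on 3 or more arrays were tested. The groups were compared in limma 3.58.1 (R 4.3.3) with two-sided tests and no covariates, and p-values were adjusted over all tested probes (Benjamini-Hochberg). The procedure was tested on simulated arrays in which 200 probes changed by 1 on the log2 scale and no slide effect was added. That does not cover changes as small as those of the members. Slides were inferred from shared scans. The number of arrays limits the precision.

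The members and gene lists were chosen with earlier results of these data known. Named genes were all members, and of each list the called genes (up to 5) and at most 2 others with the largest absolute log2 difference, with others marked in the text. Alternatives concerned normalization (75th percentile, none), background (normexp, offset 50, on median signals), the source of the values, detection filters, dim signals raised to a floor, the variance model, the methods' t-test, blocks for replicate number or slide, non-uniform spots, the mean over a gene's probes, and arrays left out singly. Protein sequences of the members were not analysed here, and some genes of the lists are counted but not reported here by name.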

Additional observations from a re-analysis of the deposited data

How the results depend on the processing

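The number of member probes with an adjusted p under 0.05 (limma), 2 in the text, was 2 or 3 in the other settings except the following. It was 0 without normalization, 1 with normexp (a CASP2 probe), 0 with a replicate block and 0 with slide as a block. It was also 0 with each array left out in turn. With the mean over a gene's probes, no member gene was called, and the lowest adjusted p was 0.0577 (limma, CASP2). The number of member probes changed 1.5-fold with an unadjusted p under 0.05 was 0 in the text and in every setting but slide as a block. There the log2 difference is that of IL-17A replicate 1 alone from the 3 controls, and XIAP A_33_P3231187 differed by -0.68. No paired design was used, because samples with the same number did not deviate together (correlations of -0.087, -0.0022 and -0.047). With a replicate block, 4 of all tested probes were called, against 1818, and 48 with slide as a block. Of 266 log2 differences over 19 settings, 234 kept their direction and their side of the threshold. Another 22 fell below it, 4 passed it and 6 reversed. All 22 falls were at the 2 called CFLAR probes, each of which lost its call in 11 of the 19 settings. The 4 passes were all at CASP2 A_23_P387943. Among the 6 reversals were CASP10 A_33_P3383283 with slide as a block (0.040) and CASP8 without control replicate 3 (-0.049, within -0.049 to 0.095 over the arrays left out). XIAP A_33_P3231187 reversed without IL-17A replicate 1 (0.19, within -0.24 to 0.19). The others reversed when replaced by the mean over the probes of their gene. They were XIAP A_33_P3231187 (0.017), CFLAR A_23_P156807 (0.10) and CASP10 A_24_P3045 (-0.00055). None of these probes was called in the text, and the cause was not tested. All-probe counts at 1.5-fold ranged from 15 with normexp to 978 without a detection filter, against 522. The mean linear signals of the dim probes XIAP A_33_P3231187 and CASP10 A_24_P3045 were 10.2 to 13.2, where the lowest signal well above background was 3.62 to 4.32, and this limits their precision.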
